A study of Sorghum bicolor with 12 samples.

Results

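The end of chromosome 5 of sorghum was described here as a block of neighbouring genes, running in locus number order from Sb05g022895 to Sb05g026730. Every annotated locus in that interval with a probe was a member, which gave 472 of the 34286 annotated loci on the array. The interval had been chosen because the sweet sorghum cultivar Keller and the grain sorghum cultivar BTX623 differed there on these same arrays, so the cultivar differences below describe the block and were not tested. The study compared whole seedlings, 14 days old and grown in a greenhouse, from Keller at 0, 2 and 6 h in a 5% sucrose solution and from BTX623 at the same times. Each of the 6 groups had 2 arrays, which the methods call independent biological repeats, so 6 Keller arrays stood against 6 BTX623 arrays. No seedlings kept out of sucrose for 2 or 6 h were analysed here, so time and sucrose cannot be told apart.

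Gene density in sorghum is highest towards the chromosome ends, and plant genomes hold many clusters of similar neighbouring genes that arose by tandem duplication. Resistance genes, F-box genes and storage protein genes are textbook examples of such clusters. Members of a cluster are often gained, lost or silenced in some lines of a species and kept in others. Levels are given as the log2 of the processed Cy3 signal minus the log2 of the 75th percentile of that array, so 0 is the level of a fairly bright probe and about -7 is the level of an empty spot. A difference is the mean of the 6 Keller arrays minus the mean of the 6 BTX623 arrays. In whole seedlings, fewer cells of a type and less RNA per cell cannot be told apart. The annotation behind the probes was made on the BTX623 genome, so a lower signal in Keller from less transcript and from a differing Keller sequence under the probe cannot be told apart.

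The seedlings carried the transcripts of green tissue. Sb03g027030 and Sb03g027040, annotated as chlorophyll a-b binding proteins, stood at 8.78 to 9.71 on all 12 arrays, and the Rubisco small chain gene Sb05g003480 at 6.29 to 7.16. Another locus annotated as a chlorophyll a-b binding protein, Sb03g033110, was well above background on 0 arrays. No root-defining gene was named in the annotation used, so the root part of the seedlings was not checked. Between 28323 and 34664 probes were well above background per array, replicates of a group correlated at r = 0.938 to 0.967 across probes, and the 75th percentile was 323 to 400 on slide 1 and 549 to 677 on slides 2 and 3.

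Many loci of the block were at or near background in seedlings. Of the 472 loci, 213 were well above background on all 12 arrays, 97 on no array, and 300 on both arrays of at least 1 group. Those 300 loci, which are called measured below, were 63.6% of the block, against 79.4% of all annotated loci. Of them, 251 passed in both cultivars, 23 through Keller alone and 26 through BTX623 alone. The loci of the last 2 kinds passed only where they were bright, so their differences were to some extent fixed by that filter.

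Among the 300 measured loci, 34 were at least 2-fold higher in Keller and 38 at least 2-fold higher in BTX623. Over all 27207 measured loci of the array, 3.68% were at least 2-fold higher in Keller and 3.94% at least 2-fold higher in BTX623. In 20 of the 34 loci every Keller array was above every BTX623 array, and in 26 of the 38 every BTX623 array was above every Keller array, where 1.46% and 2.28% of all measured loci did so. The block was chosen on this contrast, so these shares restate its choice. Among the 251 loci that passed in both cultivars, 21 were at least 2-fold higher in Keller and 18 in BTX623, or 8.37% and 7.17%. The rest of the 34 and 38 passed only through the cultivar where they were bright. The same split over all loci of the array is not given here. Of the 34 loci, 8 were well above background on no BTX623 array, and of the 38, 10 on no Keller array, so that their folds are only limits, under 2-fold for 3 and 2 of them. With every spot that was not well above background raised to the lowest such signal of its array, an alternative chosen after seeing the data, 31 loci were at least 2-fold higher in Keller and 35 in BTX623, against 2.76% and 3.45% of all measured loci. Of the 300 measured loci, 175 differed by less than 0.5 on the log2 scale, and that share over all measured loci is not given here. The median difference was 0.09 in the block and 0.07 over all measured loci. Regardless of direction, the median size of the difference was 0.41 in the block, against 0.24 over all measured loci. The block thus held differing loci of both directions among neighbours that were less far apart.

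**Figure D1:**
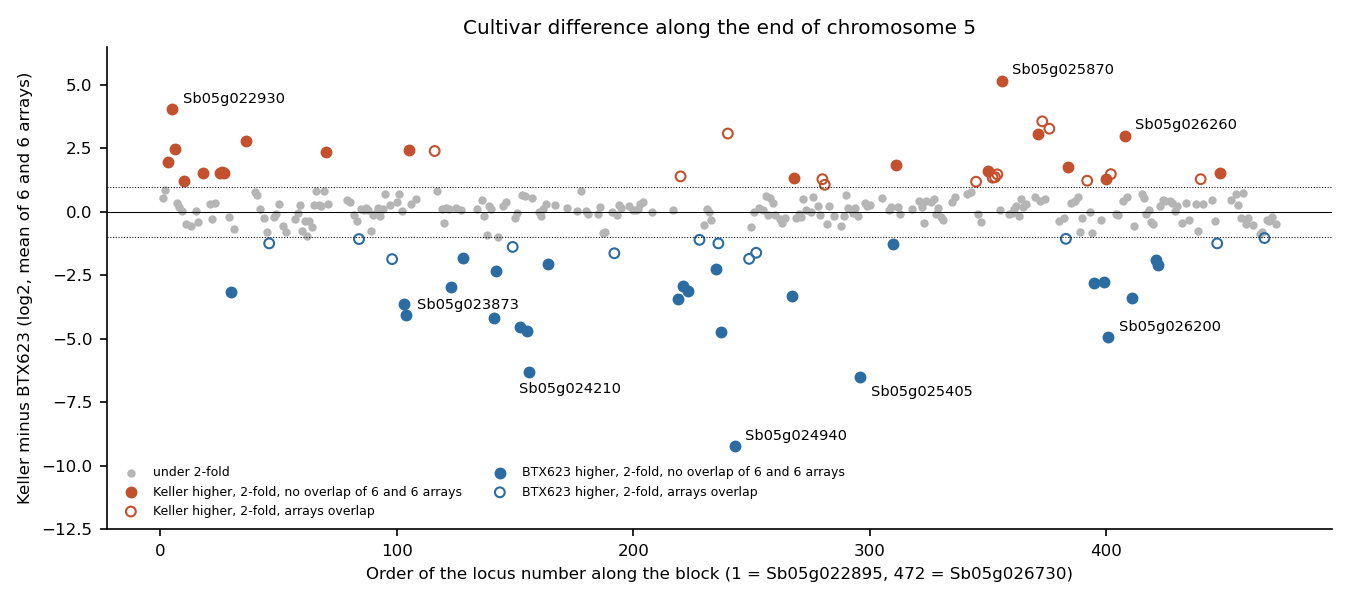
Difference between cultivars (log2, mean of 6 Keller arrays minus mean of 6 BTX623 arrays) of the 300 measured loci, in order of locus number. Filled points are loci at least 2-fold apart whose 6 and 6 arrays do not overlap (20 higher in Keller, 26 higher in BTX623), open points are those at least 2-fold apart whose arrays overlap, grey points are under 2-fold, and dotted lines mark 2-fold; where a locus was not well above background in a cultivar, its plotted difference has no exact size.

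Most differences had the same direction at each time and on each slide. By their measured levels, all 34 loci higher in Keller were higher there at 0, 2 and 6 h, 29 of them by 2-fold or more at each time, and 37 of the 38 loci higher in BTX623 were higher there at each time, 30 of them by 2-fold or more. The arrays lay on 3 slides of 4 arrays, with 3 Keller arrays on slide 1, 2 on slide 2 and 1 on slide 3, so slide and cultivar were not balanced. Within each of the 3 slides the direction was the same for 28 of the 34 and 34 of the 38 loci. For the 46 loci without overlap it could not differ, by definition. Sizes held less often: 17 of the 34 and 25 of the 38 were at least 2-fold apart within each slide. In both replicates, 25 of the 34 and 32 of the 38 were at least 2-fold apart. Times, slides and replicates are parts of the same 12 arrays whose means gave the 34 and 38 loci, so this agreement is a description and no independent check. Sizes depended on how dim probes were treated: with normexp background correction, which raises them, 15 loci were at least 2-fold higher in Keller and 18 in BTX623. Where only the 213 loci that were well above background on all 12 arrays were counted, 17 were at least 2-fold higher in Keller and 14 in BTX623, or 7.98% and 6.57%, against 2.01% and 2.28% of the 22624 such loci of the array.

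Direction changed several times along the block. From Sb05g022895 to Sb05g023351, 9 of 33 measured loci were at least 2-fold higher in Keller and 2 in BTX623. From Sb05g023900 to Sb05g024390 the direction was mostly the other way, with 1 of 41 measured loci higher in Keller and 9 higher in BTX623. BTX623 also led from Sb05g024400 to Sb05g024890, with 1 and 7 of 28 loci. Between Sb05g025400 and Sb05g025890, 7 of 37 loci were higher in Keller and 2 in BTX623, and from Sb05g025900 to Sb05g026395 both directions were common, with 8 and 7 of 52 loci. The last loci, Sb05g026400 to Sb05g026730, held 2 of each among 27. Runs of neighbouring measured loci that were 2-fold apart in the same direction numbered 4 for Keller, with 12 loci, and 7 for BTX623, with 16 loci. The longest runs without any 2-fold locus were 18 measured loci from Sb05g023250 to Sb05g023570 and 17 from Sb05g025540 to Sb05g025780. No count of runs outside the block is given here, and whether differing loci lay together more than their number alone would give was not tested.

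The loci at the ends of the interval were no more than 2-fold apart. Just inside, Sb05g022895 was 0.53 and Sb05g022900 0.86 higher in Keller, and at the far end Sb05g026730 differed by -0.48 while Sb05g026720 was well above background on 0 arrays. Just outside, Sb05g022890 differed by 0.48 and Sb05g026740 by -0.38. Sb05g022880 was well above background on 0 arrays and Sb05g026750 on 2 BTX623 arrays.

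Some loci gave a signal in a single cultivar: 3 were well above background on all 6 Keller arrays and no BTX623 array, and 8 on all 6 BTX623 arrays and no Keller array. Over all 34286 loci, 0.204% were detected in Keller only and 0.324% in BTX623 only, again as a description of a block chosen for it. For these loci the lower cultivar gives only a limit, so folds are written as at least the mean of the brighter cultivar over the lowest signal still well above background on each array of the other.

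**Figure D2:**
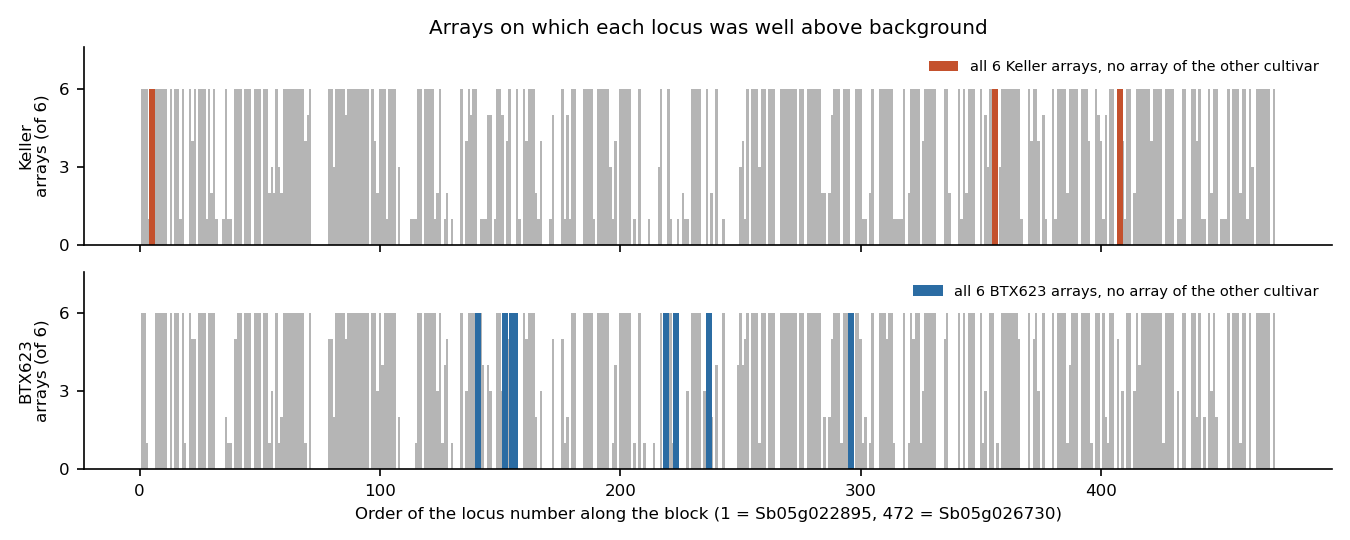
Number of Keller arrays (top) and BTX623 arrays (bottom), of 6 each, on which each of the 472 loci was well above background, in order of locus number. Coloured bars, drawn wider than the grey ones, mark the 3 loci seen on all 6 Keller arrays and no BTX623 array and the 8 loci seen on all 6 BTX623 arrays and no Keller array, 4 of which lie close together between Sb05g024120 and Sb05g024210.

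Sb05g025870 was the brightest of the Keller-only loci. Its levels were -1.89 and -1.25 at 0 h, -4.39 and -2.48 at 2 h, and -3.75 and -1.43 at 6 h in Keller, against -8.14 to -7.12 in BTX623. It was at least 9.33-fold higher in Keller, and no array of BTX623 came near its lowest Keller array. Sb05g022930 averaged -3.31 ± 0.67 in Keller and -7.37 ± 0.24 in BTX623 (SD, n = 6 each), at least 5.43-fold higher in Keller. Sb05g026260, which is annotated as weakly similar to a GRAS family transcription factor, averaged -4.47 ± 0.65 in Keller and -7.48 ± 0.17 in BTX623, at least 2.43-fold higher in Keller. GRAS proteins are plant regulators of growth and hormone signalling.

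Of the 8 loci seen in BTX623 only, Sb05g025405 and Sb05g024210 were the brightest. Sb05g025405 lay between -8.26 and -6.26 in Keller and between -1.34 and -0.59 in BTX623, at least 28.3-fold higher in BTX623. Sb05g024210 ran from -8.08 to -7.20 in Keller and from -1.80 to -0.29 in BTX623, at least 23.9-fold higher in BTX623. No Keller array of either locus was above background while every BTX623 array was. Sb05g024210 had 3 others of this kind nearby, of which only Sb05g024200 was its direct neighbour. Measured loci under 2-fold apart lay between the others, such as Sb05g024160 (-0.25) and Sb05g024195 (0.64). Of the 3, Sb05g024120 averaged -7.30 ± 0.39 in Keller and -3.12 ± 0.64 in BTX623. Sb05g024180 averaged -7.17 ± 0.37 in Keller and -2.63 ± 0.79 in BTX623, and Sb05g024200 averaged -7.54 ± 0.47 in Keller and -2.85 ± 0.74 in BTX623. The lower limits of their folds were 6.19, 8.70 and 7.49. Further on, Sb05g024900 averaged -7.28 ± 0.60 in Keller and -2.56 ± 0.32 in BTX623 and was at least 9.10-fold higher in BTX623.

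Sb05g024730 and Sb05g024770 were BTX623-only loci whose BTX623 level was not steady. Sb05g024730 was between -8.07 and -6.31 in Keller. In BTX623 it was -0.81 and -2.81 at 0 h, -3.94 and -3.63 at 2 h, and -5.45 and -4.20 at 6 h. Sb05g024770 was between -8.03 and -6.10 in Keller. In BTX623 it was -0.84 and -2.94 at 0 h, -4.03 and -4.66 at 2 h, and -5.34 and -5.0 at 6 h. Both were highest in BTX623 before sucrose and lowest at 6 h, and no gene function is annotated for either.

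The largest difference of the block was that of Sb05g024940, and the study had also designed a primer pair for quantitative PCR of this locus. The pair is shown here because it identifies the transcript with the widest gap, in lower case with no part marked.
Forward primer: cacgatccctacagtccttctc
Reverse primer: actggtcgtgcatgtagaagtg
Its Keller arrays read -7.58 and -6.24 at 0 h, -4.62 and -6.15 at 2 h, and -5.34 and -7.68 at 6 h, and only 1 of them was well above background. Its BTX623 arrays read 5.90 and 2.75 at 0 h, 3.93 and 3.41 at 2 h, and 1.13 and 0.70 at 6 h. With the other 5 Keller arrays raised to the lowest signal well above background on each, the locus was at least 369-fold lower in Keller, and every BTX623 array was more than 5 log2 units above every Keller array. On the same footing Keller minus BTX623 was -10.33 or lower at 0 h, -8.75 or lower at 2 h and -6.51 or lower at 6 h. In BTX623 its 0 h arrays were above its 6 h arrays, but the change at 6 h in BTX623 was not among those called by the test described below.

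**Figure D3:**
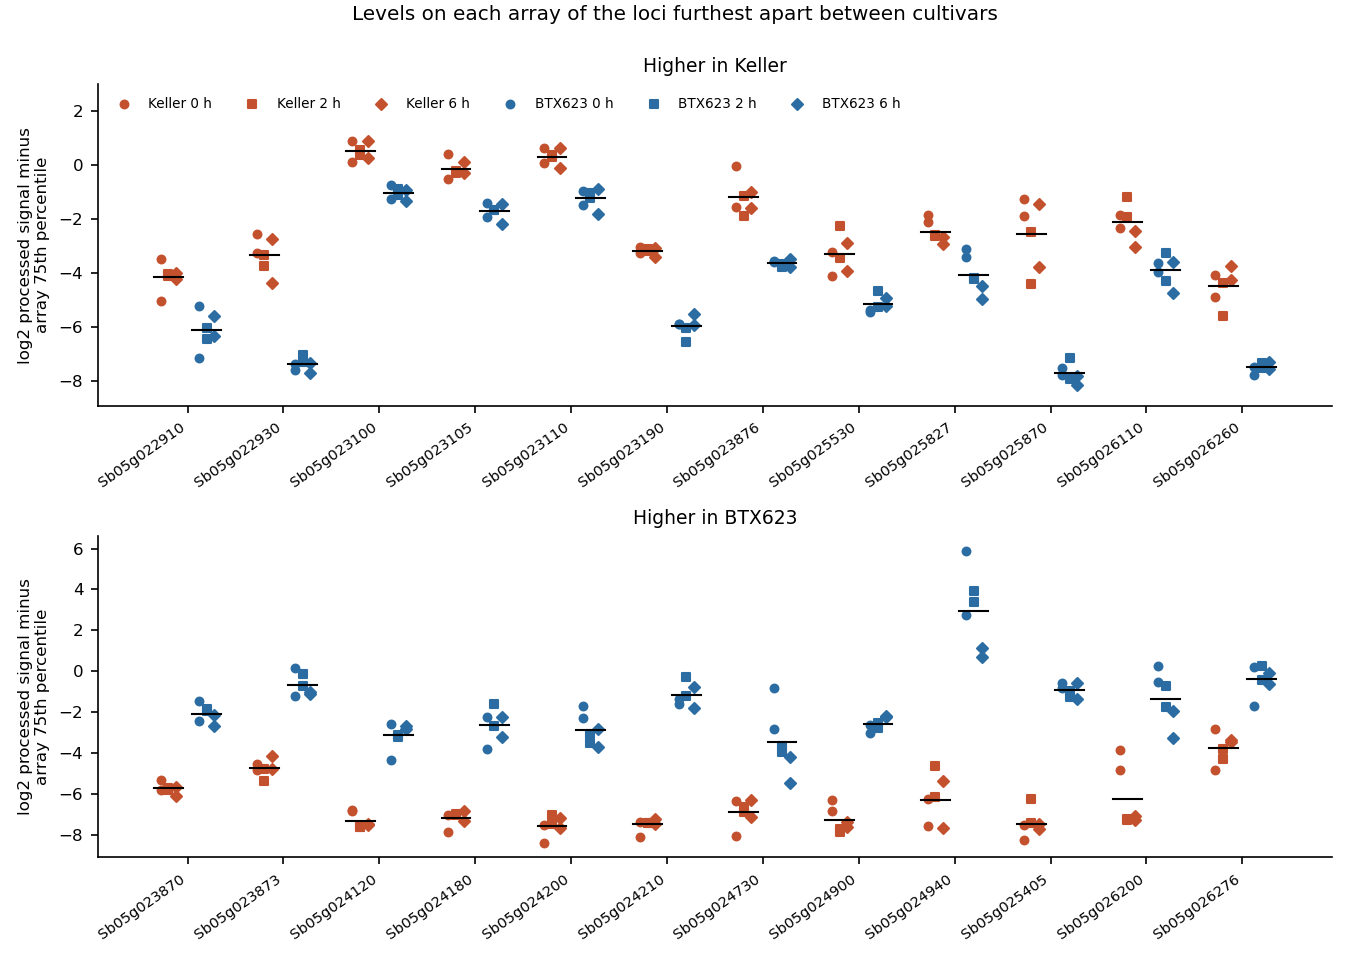
Level on each array (log2 processed signal minus the 75th percentile of the array) of the 12 loci with the largest difference in each direction, among those without overlap and well above background on all 6 arrays of the higher cultivar. Marker shapes give the hours in sucrose and black lines the mean of 6 arrays; for the loci higher in Keller every Keller array is above all 6 BTX623 arrays of the same locus, and for those higher in BTX623 every Keller array is lower than all 6.

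Other loci higher in BTX623 were well above background on at least 1 array of each cultivar. Sb05g023873 averaged -4.74 ± 0.39 in Keller and -0.67 ± 0.57 in BTX623, 16.7-fold lower in Keller, and was well above background on all 12 arrays. Its neighbour Sb05g023870 averaged -5.72 ± 0.24 in Keller, where 1 array was well above background, and -2.08 ± 0.43 in BTX623. The next locus, Sb05g023876, went the other way with -1.18 ± 0.65 in Keller and -3.62 ± 0.12 in BTX623, 5.43-fold higher in Keller. These 3 neighbours thus switched direction between adjacent locus numbers, and all were without overlap. Sb05g026276 averaged -3.76 ± 0.72 in Keller and -0.39 ± 0.73 in BTX623, a difference of -3.38. Sb05g025160, named here after its values were seen, averaged -3.90 ± 0.34 in Keller and -0.59 ± 0.42 in BTX623.

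Sb05g026200 was lower in Keller and also fell with time. Keller arrays read -4.81 and -3.85 at 0 h, -7.21 and -7.29 at 2 h, and -7.05 and -7.28 at 6 h. BTX623 arrays read -0.53 and 0.27 at 0 h, -1.76 and -0.74 at 2 h, and -1.94 and -3.26 at 6 h. The lowest BTX623 array, at 6 h, was still above the highest Keller array, at 0 h.

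Several of the loci higher in Keller lay at the start of the block. Sb05g023190 averaged -3.16 ± 0.14 in Keller and -5.95 ± 0.33 in BTX623, where 2 of 6 arrays were well above background, and was at least 5.56-fold higher in Keller. Sb05g022910 averaged -4.13 ± 0.50 in Keller and -6.11 ± 0.68 in BTX623, where 1 array was well above background, and was at least 2.91-fold higher in Keller. The neighbouring loci Sb05g023100, Sb05g023105 and Sb05g023110 differed by nearly the same amount, 1.55, 1.58 and 1.55. The first 2 of them are annotated as weakly similar to F-box domain proteins, which choose the proteins that a ubiquitin ligase marks for breakdown, and were listed by the study as related to LTR retrotransposons. Sb05g023100 lay at 5:55522623 to 55523972 on the plus strand and ranged from 0.14 to 0.89 in Keller and from -1.31 to -0.71 in BTX623. Sb05g023105 lay at 5:55528264 to 55529553 on the minus strand and ranged from -0.52 to 0.44 in Keller and from -2.18 to -1.38 in BTX623. Their positions are those of the study's gene lists, whose genome build is not given in the sources used here. Probe sequences were not available here, and whether Sb05g023100, Sb05g023105 and Sb05g023110 shared signal on the array was not tested. Sb05g023140, which follows them and was named after its values were seen, was lower in Keller, with -6.18 ± 1.07 in Keller, where 2 arrays were well above background, and -3.02 ± 0.48 in BTX623.

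Further loci higher in Keller lay towards the far end. Sb05g026110 averaged -2.11 ± 0.63 in Keller and -3.89 ± 0.54 in BTX623, Sb05g025530 averaged -3.29 ± 0.68 in Keller and -5.13 ± 0.30 in BTX623, and Sb05g025827 averaged -2.45 ± 0.40 in Keller and -4.05 ± 0.69 in BTX623. They were 3.44-fold, 3.56-fold and 3.03-fold higher in Keller, with no overlap of the arrays. None of them has an annotation in the lists used here.

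Only 52 of the 472 loci had an annotation in those lists, 5 of the 34 loci higher in Keller and 2 of the 38 higher in BTX623, so most of the differing loci can be given by number only. Of 4 members on the study's list of carbohydrate genes, Sb05g022970, similar to a glycosyl transferase of family 8, averaged -3.04 ± 0.40 in Keller and -4.27 ± 0.26 in BTX623 and was 2.35-fold higher in Keller. Sb05g026330, whose annotation names no function, averaged -5.08 ± 0.41 in Keller and -3.19 ± 0.43 in BTX623 and was 3.70-fold lower in Keller. Sb05g023560, similar to mannose-6-phosphate isomerase, which links mannose to glycolysis, was level between cultivars at -1.59 ± 0.81 in Keller and -1.85 ± 1.02 in BTX623. Sb05g023030 was well above background on 1 Keller array and no BTX623 array.

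The transcription factors of the block were mostly quiet. Of 20 listed members 9 were measured, 7 were well above background on no array, and 1, the GRAS locus Sb05g026260, was 2-fold apart. The other 2 measured loci of the same cluster of 5 were under 2-fold apart: Sb05g026250 averaged -4.32 ± 0.56 in Keller and -4.77 ± 0.32 in BTX623, and Sb05g026270 averaged -5.02 ± 0.84 in Keller and -5.60 ± 0.51 in BTX623. Sb05g026245 was seen on no array and Sb05g026273 on 1 Keller array. The 9 MADS-box loci, a family known for floral organ identity, included a cluster of 7 from Sb05g023886 to Sb05g023917. In that cluster only Sb05g023886 was measured, at -5.31 ± 0.37 in Keller and -5.81 ± 0.86 in BTX623. Of the others, Sb05g023890, Sb05g023895 and Sb05g023910 were seen on no array, Sb05g023912 and Sb05g023915 on 1 Keller array each, and Sb05g023917 on 1 array of each cultivar. Outside the cluster Sb05g023351 was measured at -2.40 ± 0.24 in Keller and -2.72 ± 0.27 in BTX623, and Sb05g025970 was seen on no array.

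Kafirins are the storage proteins of sorghum endosperm. The 3 kafirin loci Sb05g024400, Sb05g024410 and Sb05g024420 were well above background on no array of either cultivar, at means of -7.88 to -7.71. Among 20 loci that the study listed as related to LTR retrotransposons, 9 were measured, 2 were at least 2-fold higher in Keller and 1 in BTX623, with a median difference of 0.27. Among 14 loci listed as related to CACTA transposons, 8 were measured, 1 was higher in Keller and 0 in BTX623. That locus, Sb05g024916, is annotated as similar to a taxane 10-beta-hydroxylase, a cytochrome P450 enzyme known from yew. It averaged -2.33 ± 1.38 in Keller and -5.42 ± 1.89 in BTX623, and the arrays of the cultivars overlapped. The only listed resistance gene, Sb05g025000, similar to the stripe rust resistance protein Yr10 of wheat, was seen on 4 BTX623 arrays and no Keller array. It averaged -6.63 ± 0.64 in Keller and -4.77 ± 1.15 in BTX623, at least 1.97-fold lower in Keller, with overlapping arrays, and the difference was -0.05 with normexp correction. Of 16 members annotated as uncharacterized or predicted proteins, 7 were measured and 0 were 2-fold apart; Sb05g023510 came closest, with a difference of -0.96, and Sb05g025210, Sb05g023670 and Sb05g023690 differed by 0.49, 0.41 and -0.13.

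At a few loci the replicates of a cultivar stood as far apart as the cultivars. With 3 arrays per replicate number, one at each time, 10 measured loci had all Keller arrays of a replicate above those of the other with means at least 4-fold apart, and 6 loci did so in BTX623. Over all measured loci the shares were 0.897% in Keller and 1% in BTX623. Sb05g026010, Sb05g026040 and Sb05g024485, named after their values were seen, are given as examples. Sb05g026040 read 0.72, 3.47 and 2.55 at 0, 2 and 6 h in Keller replicate 1, but -5.49, -0.78 and -5.76 in Keller replicate 2, against -4.61 to -3.02 in BTX623. Sb05g026010 read 0.59, 3.06 and 2.10 in Keller replicate 1 and -4.00, -1.05 and -4.35 in Keller replicate 2, against -4.94 to -3.22 in BTX623. At both loci every array of Keller replicate 1 was above all BTX623 arrays. Keller replicate 2 was above all BTX623 arrays at 2 h, and at 0 and 6 h it was within their range at Sb05g026010 and under it at Sb05g026040. At Sb05g026040 the mean difference of 3.28 between the cultivars came to 6.51 in replicate 1 and 0.05 in replicate 2. At Sb05g026010 the mean difference of 3.57 came to 6.48 in replicate 1 and 0.66 in replicate 2. At Sb05g024485 it was Keller replicate 2 that stood apart, at -5.66, -4.45 and -5.07, against -2.92 to -0.42 in Keller replicate 1 and -2.29 to -0.87 in BTX623. All Keller arrays of replicate 1 lay on slide 1 and those of replicate 2 on slides 2 and 3, so repeat and slide cannot be told apart within Keller.

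**Figure D4:**
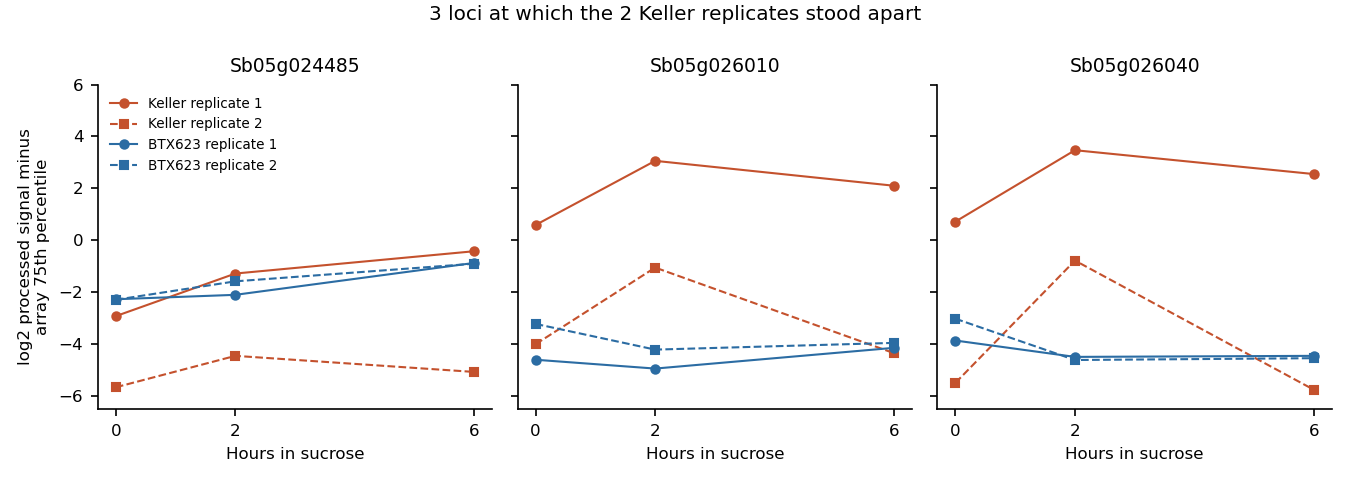
Level (log2 processed signal minus the 75th percentile of the array) of 3 loci against hours in sucrose, with a line for each replicate of Keller and of BTX623. At Sb05g026010 and Sb05g026040 the arrays of Keller replicate 1 lie at 0.59 or above while all BTX623 arrays lie at -3.02 or below, and at Sb05g024485 the arrays of Keller replicate 2 lie at -4.45 or below, under all others.

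Several loci had further probes for other transcript models. The 3 other probes of Sb05g023550 differed by 0.57 to 0.76, beside 0.81 for its main probe, and the other probe of Sb05g024460 by -0.76 beside -0.81. At these loci the probes gave the same direction. At Sb05g025260, named after its values were seen, the other probe gave 0.54 and the main probe -0.14.

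The response to sucrose did not enter the choice of the block and was tested for every probe of the array with limma, the adjusted p covering all probes fitted. Some of these contrasts crossed slides. BTX623 replicate 1 had 0 h on slide 1 but 2 and 6 h on slide 2. Keller replicate 2 had 0 and 2 h on slide 2 but 6 h on slide 3. The main model had no block for slide or replicate. At 6 h, averaged over the cultivars, 13 of the 300 measured loci had risen and 15 had fallen by at least 2-fold, or 4.33% and 5%. Over all measured loci 3.72% rose and 5.6% fell, so the shares in the block were close to those of the array. With slide as a block in the model 21 rose and 22 fell, but the shares over all measured loci with that model are not given here. Of the 28 loci called at 6 h, 7 were also at least 2-fold apart between the cultivars. That is close to the share in the block as a whole, where 72 of the 300 measured loci, or 24%, were so. The median change of the block was -0.06, against 0.02 over all measured loci.

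Sb05g025210, a predicted protein listed as related to LTR retrotransposons, rose by 2.65 ± 0.27 at 6 h (SE, limma adjusted p = 0.0011). It read 0.50 and 0.15 at 0 h, 2.16 and 1.45 at 2 h, and 3.09 and 3.04 at 6 h in Keller. In BTX623 it read 0.68 and -0.50 at 0 h, 1.1 and 0.92 at 2 h, and 2.54 and 2.75 at 6 h. The 4 arrays at 6 h were all above the 4 at 0 h, with similar steps in both cultivars. Sb05g024070 rose by 2.24 ± 0.33 (adjusted p = 0.0042), Sb05g025200 by 1.92 ± 0.37 (adjusted p = 0.012), and Sb05g022980 by 1.89 ± 0.30 (adjusted p = 0.0054). Sb05g025840 rose by 3.04 ± 0.46 (adjusted p = 0.0048) and Sb05g024080 by 2.19 ± 0.49 (adjusted p = 0.022). These last 2 were not above background at 0 h in BTX623, which leaves at least 5.86-fold and 3.01-fold.

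Sb05g023560, the mannose-6-phosphate isomerase locus, was among those that fell, by 1.81 on the log2 scale (SE 0.23, limma adjusted p = 0.0024). It read -1.18 and -0.83 at 0 h, -1.42 and -0.91 at 2 h, and -2.61 and -2.58 at 6 h in Keller, and -1.08 and -1.06, -1.79 and -0.96, and -3.29 and -2.89 at the same times in BTX623. The fall lay between 2 and 6 h in both cultivars. Its neighbour Sb05g023565 fell by 1.96 (SE 0.29, adjusted p = 0.0042). Sb05g024830 fell by 2.86 (SE 0.40, adjusted p = 0.0032), Sb05g026090 by 2.87 (SE 0.81, adjusted p = 0.050, just under the threshold), and Sb05g025080 by 2.11 (SE 0.32, adjusted p = 0.0047). Some falls ended below background in at least 1 cultivar and are therefore limits. Sb05g024916 fell at least 4.65-fold (adjusted p = 0.025), Sb05g025660 at least 3.94-fold (adjusted p = 0.0067), Sb05g026200 at least 3.68-fold (adjusted p = 0.0042) and Sb05g024770 at least 2.55-fold (adjusted p = 0.039). At Sb05g026090 the 6 h replicates disagreed, at -2.76 and 0.77 in Keller and -2.72 and -0.13 in BTX623. The 6 h calls of Sb05g026090 and Sb05g024770 each held in 2 of the 12 fits with an array left out.

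**Figure D5:**
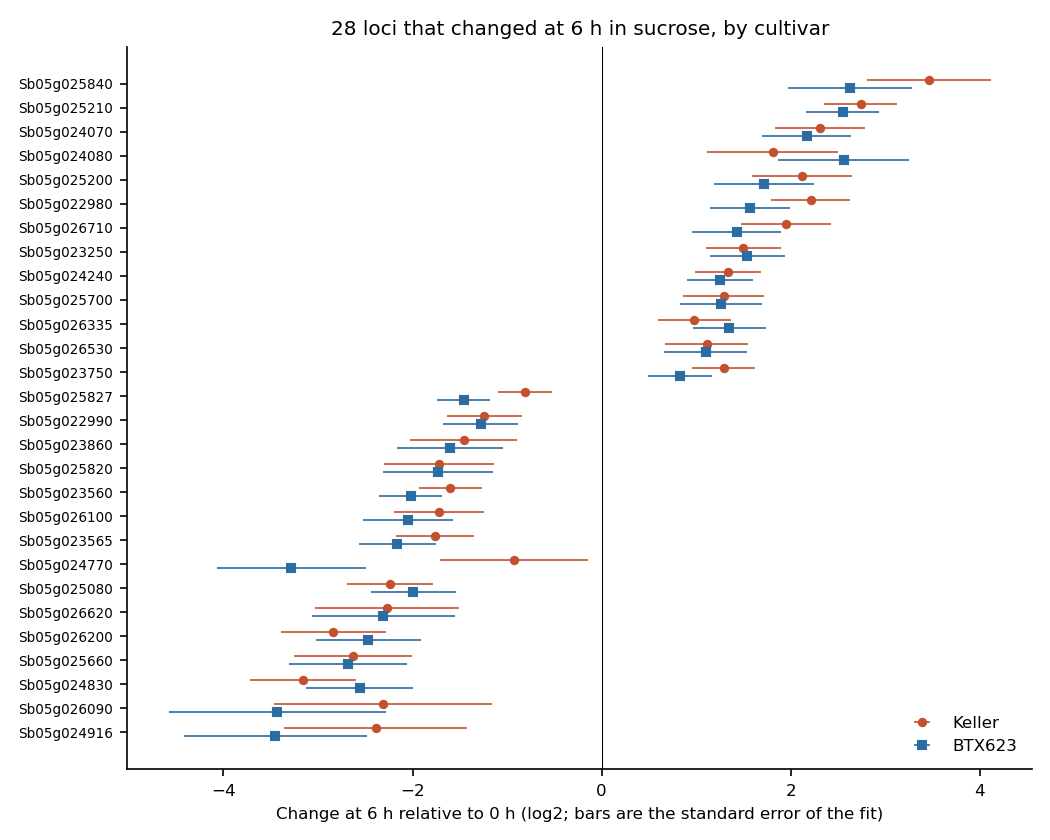
Change at 6 h relative to 0 h (log2) in Keller and in BTX623 of the 28 loci called with the cultivars averaged, ordered by that average, with bars of 1 standard error of the fit. The fitted changes have the same sign in both cultivars at all 28 loci, but Sb05g024770 was well above background on no Keller array, so its Keller change has no size or direction.

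At 2 h, averaged over the cultivars, 1 locus had risen and 2 had fallen, against 0.948% and 1.54% of all measured loci. Sb05g024240 rose by 2.08 ± 0.25 (adjusted p = 0.0061) at 2 h and by 1.29 ± 0.25 (adjusted p = 0.012) at 6 h. It read -4.76 and -5.03, -2.84 and -3.64, and -3.29 and -3.82 at 0, 2 and 6 h in Keller, and -5.24 and -5.03, -2.62 and -2.64, and -3.83 and -3.94 in BTX623. Its peak was at 2 h in both cultivars. Sb05g025980 fell by 1.20 (SE 0.22, adjusted p = 0.029) and Sb05g026200 by at least 2.29-fold (adjusted p = 0.033). With 1 array left out in turn, Sb05g024240 was called in 12 of 12 fits, Sb05g025980 in 1 and Sb05g026200 in 3. With the replicate block in the model 12 loci were called at 2 h in place of 3, and 12 with slide as a block. The shares over all measured loci with these models are not given here.

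Within a cultivar fewer loci passed. In Keller at 6 h, 4 loci had risen, Sb05g022980, Sb05g024070, Sb05g025210 and Sb05g025840, and 4 had fallen, Sb05g023560, Sb05g024830, Sb05g025080 and Sb05g026200, against 0.658% and 1.57% of all measured loci. In BTX623 at 6 h, Sb05g024070 and Sb05g025210 had risen, and Sb05g023560, Sb05g023565, Sb05g024830, Sb05g025827 and Sb05g026230 had fallen, against 0.989% and 2.05%. Of 7 other settings of the fit, the BTX623 call was kept in 7 for Sb05g025210, 6 for Sb05g023560 and 5 for Sb05g023565. It was kept in 4 for Sb05g024070, Sb05g025827 and Sb05g026230, and in 2 for Sb05g024830. The call of Sb05g026230 was lost in each fit with an array left out. Sb05g025827, which was 3.03-fold higher in Keller, changed by -0.81 in Keller (SE 0.28, adjusted p = 0.19) and fell by 1.46 in BTX623 (SE 0.28, adjusted p = 0.033), a call kept in 1 of the 12 fits with an array left out. The changes rest on 2 arrays per group, and these counts move with the model. With the replicate block 22 loci were called in Keller and 32 in BTX623, in place of 8 in Keller and 7 in BTX623. The shares over all measured loci with that block are not given here, so the larger counts cannot be read as a trait of the block of loci. The count in Keller was 0 without the 0 h or the 6 h array of Keller replicate 1, and the count in BTX623 was 0 without either of its 6 h arrays.

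No locus of the block was called as responding differently in the cultivars. For the change at 6 h in Keller minus that in BTX623, 0 of 300 loci were called by limma and 8 had an unadjusted p under 0.05, and for 2 h the numbers were 0 and 6. Over all measured loci the share called was 0% for both.

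Compared with the rest of the chromosome, the block had more loci apart. Of its 300 measured loci 24% were at least 2-fold apart in either direction, against 14.8% of 1409 on the rest of chromosome 5, 12.5% on chromosome 8, and 5.74 to 8.29% on the other chromosomes. No test was made of these shares, since the block was chosen on them.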

How the data were processed

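Total RNA of whole seedlings was labelled with Cy3 by the authors, hybridised to a custom Agilent array and read with Agilent Feature Extraction 10.7.1.1. Per the file headers, the deposited intensity is a processed signal, linear and background-subtracted, with no scaling between arrays. Flags deposited by the authors mark spots well above background, saturated spots and outliers. A deposited matrix of intensity values matched the scanner files for 100% of values within 0.5%, by order.

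Outlier spots were left out, spots of a probe were averaged as log2, and a flag counted when at least 50% of the spots carried it. From each array's values the log2 of that array's 75th percentile was subtracted. A locus was represented by its main transcript's probe. A probe had to be well above background in both replicates of some group, which left 31950 of 41977. The model, from limma 3.58.1 in R 4.3.3, took all 12 arrays with a mean per group and a variance trend. It was also run on simulated signals with known changes and independent noise on each array. That run had no shift shared by same-numbered arrays, so it cannot test the p-values of these data. A change was called at a Benjamini-Hochberg adjusted p under 0.05 over all probes fitted and at least 2-fold. The number of arrays limits the precision. The p-values measure the spread between the repeats of a group, and without a replicate block that spread includes any shift shared by same-numbered arrays.

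Normexp background correction (offset 50) used median spot signals in place of mean ones. Quantile normalization, no scaling, other filters, slide or replicate number as a block, other detection rules and each array left out were also run. Same-numbered arrays deviated together in all 15 pairs of groups (r = 0.276 to 0.66). The main fit and its p-values did not use this pairing, which entered only the alternative with the replicate block. Number and slide overlap in part. The members and lists were chosen with earlier results of these data known. Named loci were the 12 furthest apart in each direction, those detected in 1 cultivar only, up to 5 called per direction in each sucrose contrast, the listed carbohydrate, kafirin, GRAS and MADS loci, the leading loci of other annotated families, and the loci at the ends. Annotations came from the study's lists, since no locus number matched the reference table used.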

Additional observations from a re-analysis of the deposited data

How the results depend on the processing

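The differences between cultivars kept their direction at every locus that the naming rule gave and that was 2-fold apart, with another background correction, scaling, filter or block and with each array left out. Many of these loci were named because their arrays did not overlap. For those, another filter or an array left out could not reverse the direction. On slides taken alone, Sb05g025840 went the other way on slide 2, at -0.12. Sizes shrank with normexp correction, which lifts dim probes: 15 and 18 loci were then at least 2-fold higher in Keller and in BTX623, in place of 34 and 38, or 5% and 6% of the block against 1.21% and 1.43% of all measured loci. Among loci above background on all 12 arrays the counts were 17 and 14. Slides taken alone, chosen after seeing the data, gave 60 for Keller on slide 2, and 58 on each of slides 1 and 2 for BTX623. Raising spots not well above background to the floor, also chosen after seeing the data, gave 31 and 35. Leaving out each array gave 34 to 41 for Keller and 37 to 40 for BTX623. Quantile normalization, no scaling, no filter, slide as a block, the replicate block and each time alone stayed within 1.5 times. The shares over all measured loci on slides taken alone, or with an array left out, are not given here, so those counts cannot be read as a trait of the block of loci.

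Loci detected in Keller only, 3, became 8 when both arrays of 1 time against no BTX623 array sufficed. They became 23 when both arrays of a time in Keller and of no time in BTX623 did. When detection was read from the scanner's test of signal over background, they became 1. For BTX623 only, 8 became 26 and 3 under the last 2 rules. The shares over all loci under these other rules, or with an array left out, are not given here. Arrays left out gave 3 to 4 for Keller and 8 to 13 for BTX623, where 13 was without Keller 0 h replicate 2, the array with most probes above background.

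Calls at 6 h with the cultivars averaged, 28, were 17 with normexp, 17 without scaling (13 of them shared), 43 with slide as a block (28 shared) and 19 to 29 with arrays left out. Calls at 2 h, 3, were 5 with quantile normalization, 1 without scaling, 12 with slide as a block, 12 with the replicate block and 1 to 5 with arrays left out. In Keller at 6 h, 8 became 1 with normexp, 3 without scaling, 17 with slide as a block, 22 with the replicate block and 0 to 6 with arrays left out. In BTX623 at 6 h, 7 became 3 with normexp, 1 without scaling, 3 without a filter, 19 with slide as a block, 32 with the replicate block and 0 to 5 with arrays left out; the 0 came without the 0 h or 6 h array of Keller replicate 1 for Keller, and without either 6 h array of BTX623 for BTX623. The tests of a different response gave 0 throughout. The replicate block changed no other count by over 1.5 times. The cause of these changes was not tested, and the shares of sucrose calls over all measured loci with these settings are not given here. No scaling shifts the median of all probes by 0.34 in BTX623 at 6 h.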
